A study of Mus musculus with 4 samples.

Results

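The genes described here are 10 transcription factors of early blood formation: Tal1, Lmo2, Lyl1, Runx1, Spi1, Gfi1, Gfi1b, Myb, Hhex and Ikzf1. They were chosen by name, and every probe whose transcript accession maps to one of these symbols was taken, which gave 12 probes for 10 of the 20660 genes that could be named on the array. The cells were EB5 mouse embryonic stem (ES) cells into which a Venus fluorescent reporter of the trunk homeobox gene Hoxb6 had been introduced, and they had differentiated for 6 days on OP9 stromal feeder cells, a bone marrow stromal line used to favour blood formation. Flk-1, the product of Kdr and a receptor for VEGF, was stained with an antibody, and Flk-1+ cells were sorted by reporter signal into a Venus-negative and a Venus-positive fraction, with 2 arrays of total RNA from each. Both fractions carried the same reporter and shared the feeder cells and the Flk-1 gate. The sources used here do not say how the reporter was built or whether the replicates came from separate cultures, so the p-values rest on a spread between arrays that may be technical only.

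Tal1 (also called SCL) and Lyl1 are related basic helix-loop-helix proteins that bind DNA together with E proteins and join GATA factors in a complex bridged by the LIM-only protein Lmo2 and its partner Ldb1. This complex is needed for blood to form from mesoderm. Runx1, the DNA-binding subunit of core-binding factor, is needed later, when hemogenic endothelium gives rise to blood cells, and the zinc finger repressors Gfi1 and Gfi1b act downstream of it to silence endothelial genes. Spi1 (PU.1), Myb and Ikzf1 (Ikaros) act in progenitors and in the choice of lineage, and the homeobox gene Hhex is active in the common precursors of blood and vessels.

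RefSeq promoter sequences of build GRCm38.p6 matched 8 of the 10 factors with 12 promoters in all. Those of Tal1 (first start), Lyl1 and Runx1 (both starts) are shown, each 250 bases long, read 5′ to 3′ and ending just before an annotated start. The Lyl1 window runs past the first base of the annotated gene (84701423), and the second Runx1 window lies within the gene. These were chosen because Lyl1 and Runx1 carried the largest differences in each direction between the fractions and Tal1 is the nearest relative of Lyl1. The windows lie at chr4:115056176-115056425 on the plus strand (Tal1, first start), chr8:84701207-84701456 on the plus strand (Lyl1), and chr16:92826075-92826324 and chr16:92697330-92697579 on the minus strand (Runx1, first and second start, 128745 bases apart). Capitals mark a word of the GATA motif (the words AGATAA and AGATAG, with TGATAA and TGATAG) or of the ETS motif (CAGGAAG or CCGGAAG), read on either strand.
Tal1 first start: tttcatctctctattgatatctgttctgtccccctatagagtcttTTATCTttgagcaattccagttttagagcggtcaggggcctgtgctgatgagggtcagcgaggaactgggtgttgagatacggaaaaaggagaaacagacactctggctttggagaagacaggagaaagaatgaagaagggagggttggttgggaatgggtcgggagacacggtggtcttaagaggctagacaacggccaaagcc
Lyl1: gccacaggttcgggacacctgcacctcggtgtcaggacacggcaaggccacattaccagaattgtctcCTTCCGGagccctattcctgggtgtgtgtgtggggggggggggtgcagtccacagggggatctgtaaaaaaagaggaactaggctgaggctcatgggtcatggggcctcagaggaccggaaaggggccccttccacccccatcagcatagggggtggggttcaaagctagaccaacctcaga
Runx1 first start: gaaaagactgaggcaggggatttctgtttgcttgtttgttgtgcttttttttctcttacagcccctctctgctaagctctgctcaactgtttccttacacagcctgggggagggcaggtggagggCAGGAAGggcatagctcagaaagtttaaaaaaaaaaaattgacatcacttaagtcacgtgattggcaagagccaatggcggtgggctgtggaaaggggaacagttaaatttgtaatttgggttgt
Runx1 second start: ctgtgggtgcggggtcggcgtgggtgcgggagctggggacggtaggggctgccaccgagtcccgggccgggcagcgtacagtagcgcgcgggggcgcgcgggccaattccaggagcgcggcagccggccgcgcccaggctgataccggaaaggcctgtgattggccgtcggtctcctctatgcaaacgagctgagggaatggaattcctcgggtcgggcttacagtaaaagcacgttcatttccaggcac
The first Tal1 promoter holds 1 GATA word, Lyl1 1 ETS word, the first Runx1 promoter 1 ETS word and the second none of the words searched. Over the 12 promoters of the factors, 2 held a GATA word (Tal1 and Gfi1b) and 5 held an ETS word, against 26.5% and 17.0% of 32851 mouse promoters of the same length. RUNX words (TGTGGT or TGCGGT) were in 0 of the 12 and E-box words (CAGCTG or CAGATG or CATCTG) in 0, against 18.6% and 25.5% of all promoters, and no marked words overlapped. The G and C content was 45.6% in the first and 67.6% in the second Runx1 promoter, against a median of 52.4% over all promoters. These are matches of letters in a short window and say nothing of binding.

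Levels are given as the log2 of the background-subtracted spot signal relative to the 75th percentile of its array, so 0 is a signal of 347 to 429 units, depending on the array. The arrays each had 50.7% to 53.0% of their non-control spots well above background and 0 saturated spots, and with so few arrays every value is imprecise. All 4 arrays were on 1 slide in 1 scan, the row on the slide equalled the replicate number, and the Venus-negative arrays were in column 2 and the Venus-positive arrays in column 3. Slide column and fraction therefore cannot be told apart. Hoxb6 itself was at 1.23 and 0.98 on the Venus-negative arrays, against 2.00 and 2.24 on the Venus-positive ones, a difference of 1.01 ± 0.16 (moderated SE, n = 2 arrays per fraction) with a limma adjusted p of 0.0717, or 0.0338 with normexp, another background correction, and 0.0282 with a trended variance prior. Kdr was at 5.72 and 5.55 against 6.06 and 6.08, a difference of 0.44 ± 0.11 with a limma adjusted p of 0.138, or 0.0477 with the trended prior. Because RNA came from bulk fractions, fewer cells of a type and less RNA per cell cannot be told apart in any value below.

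All 10 factors were measured well above background on all 4 arrays. None passed an adjusted p of 0.05 in limma's moderated test between the fractions (Benjamini-Hochberg over 23548 genes and unnamed probes), and the adjusted p ranged from 0.145 for Runx1 to 0.891 for Gfi1b. Of all 13926 genes tested, 0.984% passed as higher and 1.85% as lower in the Venus-positive cells. At an unadjusted p of 0.05, 1 factor (Lyl1) was higher and 2 (Runx1 and Ikzf1) were lower, beside 14.1% and 11.9% of all genes. The arrays of the fractions did not overlap for 3 factors that were higher (Lmo2, Lyl1 and Hhex) and 4 that were lower (Tal1, Runx1, Gfi1 and Ikzf1), beside 32.3% and 29.4% of all genes. Shares this near the background are not a result about the factors. Their median difference was -0.14 on the log2 scale, against 0.01 for all genes, and the largest fold was 1.69 (Lyl1). Without 1 array the median of the factors ranged from -0.30 to -0.02.

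**Figure D1:**
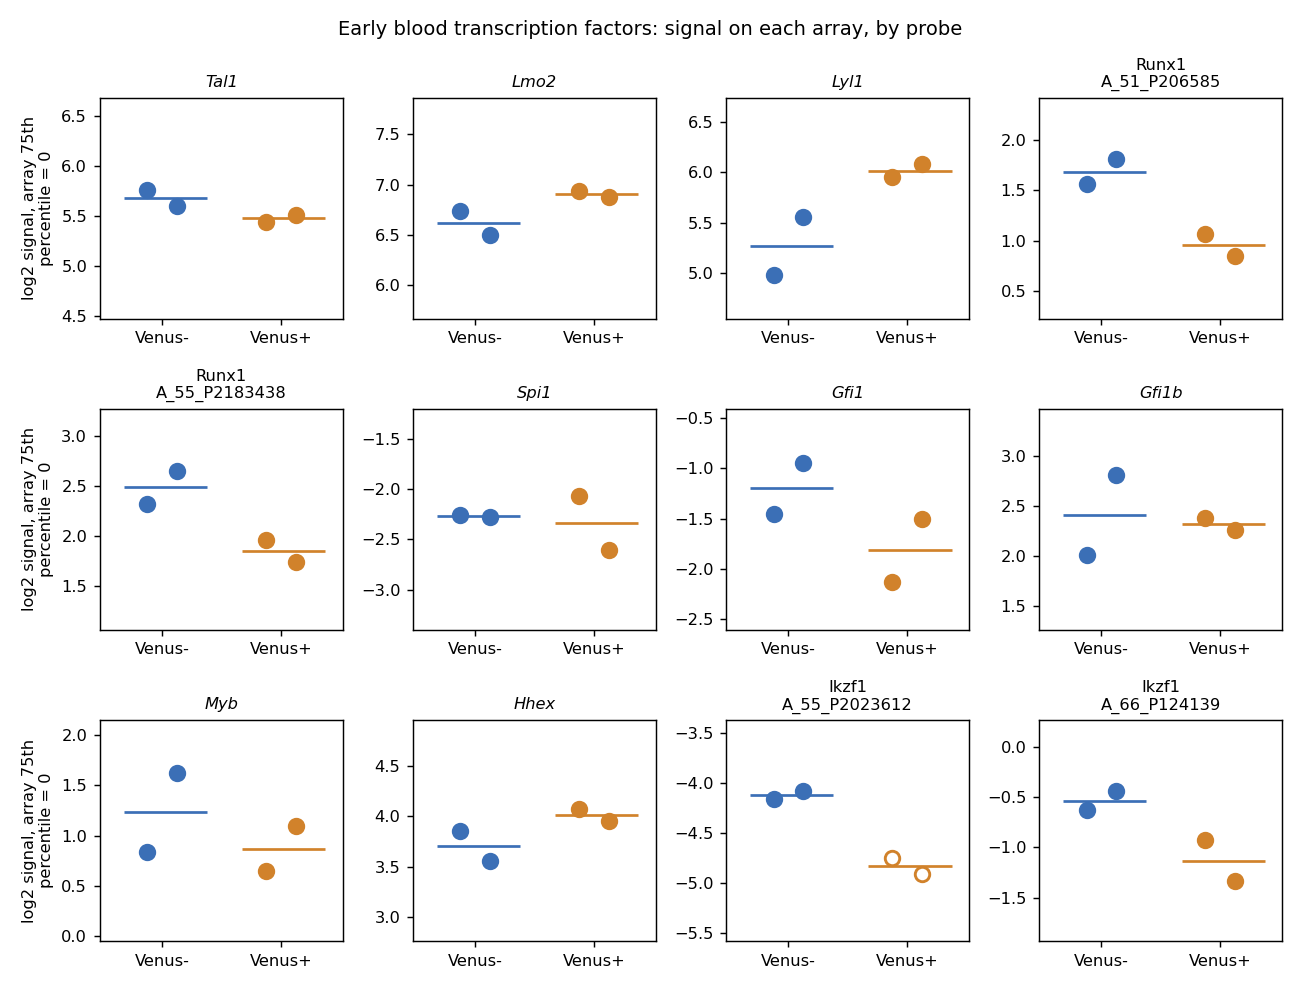
Log2 signal of each of the 12 probes (vertical axis, 0 at the array's 75th percentile, the same span in every panel) on the 2 Venus-negative (blue) and 2 Venus-positive arrays (orange). Points are arrays, replicate 1 left and replicate 2 right, lines are fraction means, and open points were not well above background. The points of the fractions are apart for Lyl1 and for both probes of Runx1 and of Ikzf1, and overlap for Spi1, Gfi1b and Myb.

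Among the factors of the SCL complex, Lyl1 (chromosome 8, 84701423 to 84704716 in GRCm38.p6) was at 4.98 and 5.55 on the Venus-negative arrays and at 5.95 and 6.09 on the Venus-positive arrays. The Venus-positive arrays were both above the Venus-negative arrays, which lay 0.58 apart. The difference was 0.75 ± 0.23 (95% interval 0.09 to 1.42; 1.69-fold), with an unadjusted p of 0.0349 and an adjusted p of 0.180 in limma. It was 0.47 without Venus-negative replicate 1 and 1.04 without Venus-negative replicate 2. Its relative Tal1 (chromosome 4, 115056426 to 115071755) was at 5.76 and 5.60 against 5.44 and 5.52, so the Venus-positive arrays lay lower by a small margin. The difference was -0.20 ± 0.11 (interval -0.53 to 0.12; limma adjusted p 0.370). Whether Lyl1 and Tal1 differed from each other was not tested. Lmo2 (chromosome 2, 103957903 to 103981878), the bridge of the complex, was at 6.74 and 6.50 against 6.94 and 6.88. Its Venus-positive arrays lay above, by 0.29 ± 0.13 (interval -0.08 to 0.65; limma adjusted p 0.287).

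Of the factors tied to core-binding factor, Runx1 (chromosome 16, 92601466 to 92826074) was measured by 2 probes designed on different transcripts. The first, A_55_P2183438, was at 2.32 and 2.65 on the Venus-negative and at 1.95 and 1.74 on the Venus-positive arrays. The second, A_51_P206585, was at 1.56 and 1.81 against 1.07 and 0.85. With both probes, both Venus-positive arrays lay below both Venus-negative arrays. The difference was -0.64 ± 0.17 for the first (interval -1.12 to -0.16; 1.56-fold; limma adjusted p 0.145) and -0.73 ± 0.15 for the second (limma adjusted p 0.104 with every probe as a feature of its own). The second probe passed with normexp (adjusted p 0.0469), and the first did not. The probes share RNA samples and gene, so they are not independent replicates. Which exon each probe covers, and so which of the Runx1 starts it follows, is not given in the sources used here.

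Gfi1 (chromosome 5, 107716655 to 107725805) was at -1.45 and -0.94 on the Venus-negative and at -2.13 and -1.50 on the Venus-positive arrays. The fractions did not overlap, but the arrays of the Venus-positive fraction differed by 0.63, more than the difference between the fractions of -0.62 ± 0.31 (interval -1.49 to 0.25; limma adjusted p 0.321). With normexp the difference between the fractions was -0.36. Gfi1b (chromosome 2, 28609450 to 28621982), which also acts in red cell and platelet precursors, was at 2.01 and 2.80 against 2.38 and 2.26. The Venus-positive arrays lay between the Venus-negative arrays, and the difference of -0.09 ± 0.31 had an interval of -0.95 to 0.78 (limma adjusted p 0.891). Without Venus-negative replicate 2 it was 0.31, and without Venus-negative replicate 1 it was -0.48.

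Of the factors that act in progenitors and lineage choice, Ikzf1 (chromosome 11, 11684962 to 11772930) was at -0.62 and -0.44 on the Venus-negative and at -0.93 and -1.34 on the Venus-positive arrays with probe A_66_P124139. The difference was -0.60 ± 0.19 (interval -1.13 to -0.07; 1.51-fold), with an unadjusted p of 0.0356 and an adjusted p of 0.181 in limma. Its second probe, A_55_P2023612, was near the detection limit. It was well above background on both Venus-negative arrays, at -4.16 and -4.08, and on 0 of 2 Venus-positive arrays, at -4.75 and -4.91. The measured difference was -0.71 ± 0.11 (limma adjusted p 0.0719 with every probe as a feature), and -0.27 with normexp (adjusted p 0.333), so at this dim signal the size of the difference depended on the background correction. Myb (chromosome 10, 21124930 to 21160984) was at 0.84 and 1.62 against 0.65 and 1.09, with the fractions overlapping. Its difference was -0.36 ± 0.34 (interval -1.33 to 0.61; limma adjusted p 0.580), and it was 0.03 without Venus-negative replicate 2. Spi1 (chromosome 2, 91082374 to 91115759) was at -2.26 and -2.28 against -2.06 and -2.60, so the Venus-positive arrays lay on either side of the Venus-negative ones. The difference of -0.06 ± 0.22 (interval -0.68 to 0.55; limma adjusted p 0.888) was 0.21 without Venus-positive replicate 2 and 0.01 with the arrays centred on their medians. Hhex (chromosome 19, 37434841 to 37440731) was at 3.86 and 3.55 against 4.07 and 3.95. Its Venus-positive arrays lay above, by 0.31 ± 0.15 (interval -0.12 to 0.74; limma adjusted p 0.315).

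The arrays of a fraction lay farther apart for these factors than for all genes, by the medians. The absolute log2 difference between the Venus-negative arrays had a median of 0.314 over the factors and 0.166 over all genes, and between the Venus-positive arrays 0.176 and 0.149. Gfi1b and Myb, each 0.79 higher on Venus-negative replicate 2, were past the 90th percentile of all genes (0.635), and Gfi1 was past it (0.577) in the Venus-positive fraction. For 4 factors (Spi1, Gfi1, Gfi1b and Myb) the difference between the fractions was smaller than the wider of the within-fraction differences. Red cell genes also differed between the Venus-negative arrays. Of 14 tested erythroid genes 13 were higher on replicate 2, with a median difference of 1.01. The level in multiples of the 75th percentile was summed over all 17 erythroid genes on the array, dim ones included. It was 110 and 169 on the Venus-negative arrays, against 94.4 and 104 on the Venus-positive ones. Gata1, the erythroid partner of Tal1, was at 3.19 and 4.21 on the Venus-negative arrays, and Klf1, a red cell regulator, at -1.10 and 0.59. On the Venus-positive arrays 12 of the 14 erythroid genes were also higher on replicate 2, with a median of 0.30. Of 14 endothelial markers 12 were higher on replicate 2 in each fraction, with medians of 0.31 and 0.26. Of 14 tested OP9 stromal and fibroblast markers 3 were higher on replicate 2 in each fraction. Of the 10 factors, 6 were higher on Venus-negative and 4 on Venus-positive replicate 2. The share of all genes higher on replicate 2 was not counted. Of 13 tested mature blood cell genes 12 were also higher on Venus-negative replicate 2, with a median of 0.67. The platelet factor Pf4 was at -2.98 and -0.96, and the granule enzyme Mpo at 0.22 and 1.76. Between the fractions Pf4 and Mpo were at 0.65 ± 0.74 and 0.62 ± 0.64, and the leukocyte genes Coro1a and Laptm5 at -0.44 ± 0.48 and 0.42 ± 0.39 (limma adjusted p 0.571 to 0.644). Between the Venus-negative arrays Tal1, Lmo2 and Hhex were lower on replicate 2, by -0.17, -0.24 and -0.30. The part of the red cell, mature blood or endothelial genes in the spread of Gfi1b, Myb, Gfi1 and Lyl1 was not tested.

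**Figure D2:**
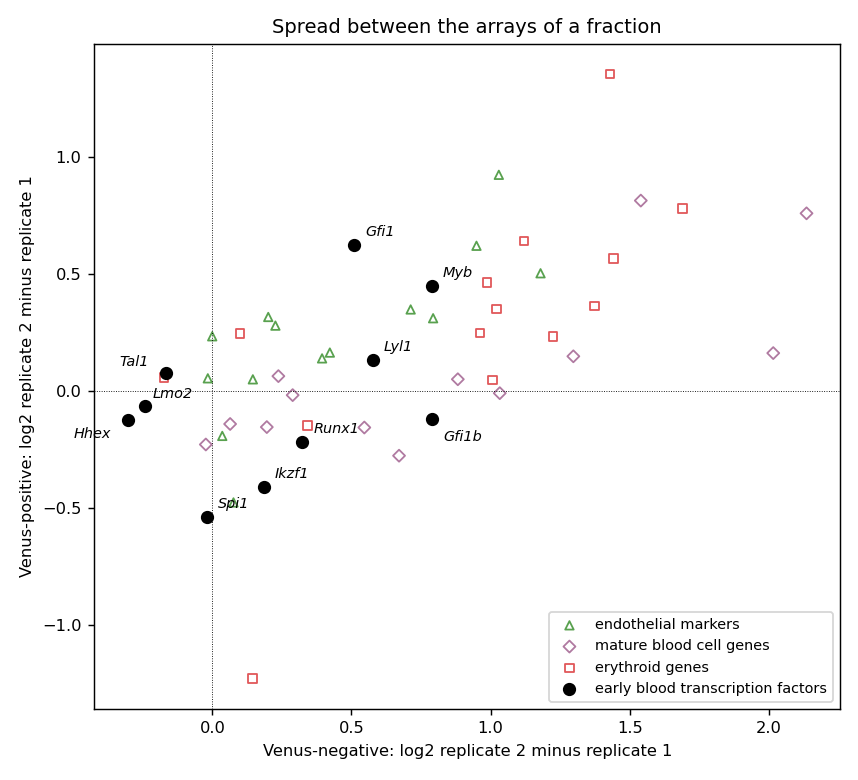
Log2 signal of replicate 2 minus replicate 1 in the Venus-negative (horizontal) and the Venus-positive fraction (vertical), 1 point per gene. Black points are the early blood transcription factors, squares the erythroid, diamonds the mature blood cell and triangles the endothelial genes. On the horizontal axis 13 of 14 squares and 12 of 13 diamonds lie right of 0, as do Myb and Gfi1b at 0.79, while Tal1, Lmo2 and Hhex lie left of it.

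Among the closest relatives of the 10 factors, Lmo1 was lower and Tal2 higher in the Venus-positive cells. Of 17 relatives 11 were tested, and 1 rose and 1 fell in the Venus-positive cells, beside 0.984% and 1.85% of all genes. The median difference was 0.03. Lmo1, a LIM-only protein related to Lmo2 and best known from neural tissue and T-cell leukemia, was at 1.77 and 1.74 on the Venus-negative and at -1.79 and -1.92 on the Venus-positive arrays. It fell by 3.61 ± 0.11 on the log2 scale (12.2-fold; limma adjusted p 0.0246). Its difference was -2.97 with normexp. Tal2, a helix-loop-helix relative of Tal1 and Lyl1 known from midbrain development and T-cell leukemia, was at -0.31 and -0.39 against 1.21 and 0.99. It rose by 1.45 ± 0.13 (2.73-fold; limma adjusted p 0.0386). Ikzf4, a relative of Ikzf1, was at -1.39 and -1.55 against -2.26 and -2.44, a difference of -0.88 ± 0.13 that missed the threshold (limma adjusted p 0.0677) and passed with normexp (0.0418). Hlx, a homeobox gene, was at 0.49 ± 0.42 (limma adjusted p 0.538). Lmo1 and Tal2 kept their sizes without any 1 of the 4 arrays, at -3.68 to -3.55 and 1.34 to 1.56, but neither call held there (limma adjusted p 0.127 to 0.161 and 0.135 to 0.169), and 0 genes passed in those smaller fits (1105 to 1514 were higher at an unadjusted p of 0.05). Whether the relatives differed from the factors themselves was not tested. Of the 6 untested relatives, Lmo3, Nhlh2 and Spic were well above background on 0 of 4 arrays.

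**Figure D3:**
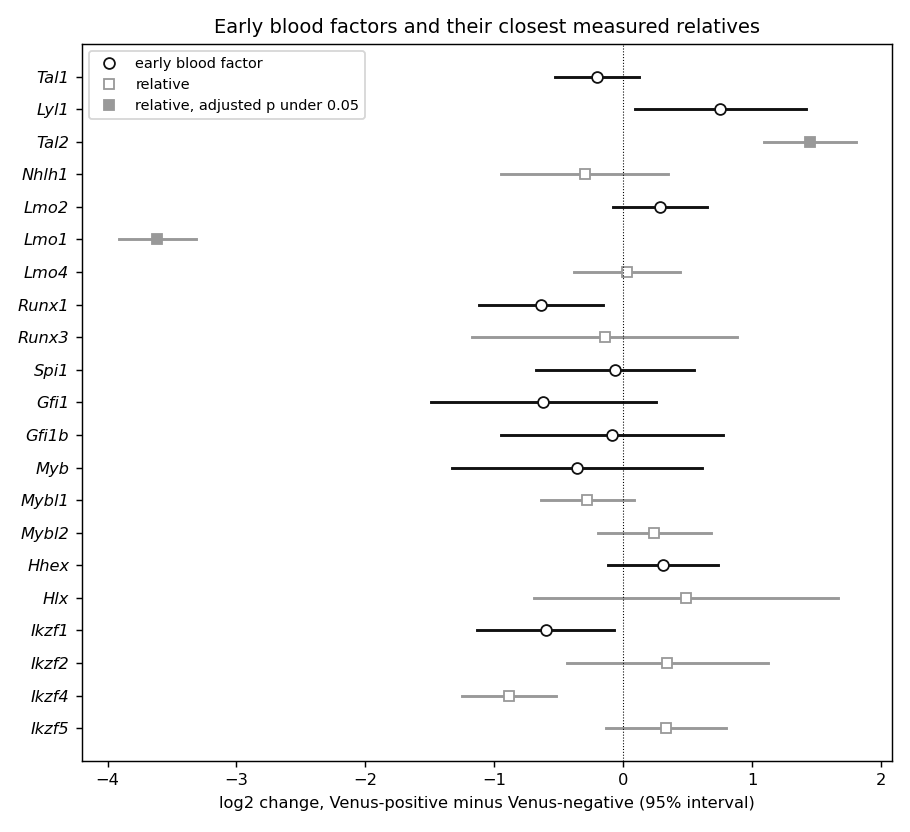
Log2 change, Venus-positive minus Venus-negative, with its 95% interval for the 10 early blood factors (circles) and their tested relatives (squares), ordered by family. Filled squares passed an adjusted p of 0.05. Lmo1 at -3.61 and Tal2 at 1.45 are the filled points, while the factors lie between -0.64 and 0.75.

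The partners of the factors held no call. Of 18 partners and corepressors of the SCL complex, 0 passed the adjusted threshold, 2 passed unadjusted (Rcor1 and Tcf4, both higher, beside the 14.1% of all genes), and the median difference was 0.08. The GATA partners had negative values, -0.69 ± 0.40 for Gata1 (limma adjusted p 0.380) and -0.40 ± 0.29 for Gata2 (0.463), and Ldb1 was at -0.03 ± 0.12 (0.909). Of 19 tested partners of core-binding factor, PU.1 and Ikaros, 0 passed the adjusted threshold, 3 passed unadjusted as higher (Irf8, Mbd2 and Kat6a, beside the same 14.1%), and the median was 0.03. Mbd2 passed the adjusted threshold with normexp (0.0398), and Jun was at 0.45 ± 0.20 (limma adjusted p 0.280). Irf8, nearest the threshold, binds DNA together with PU.1 and is needed for monocytes. It was at -2.18 and -2.59 on the Venus-negative and at -0.80 and -1.02 on the Venus-positive arrays, a difference of 1.47 ± 0.19 (limma adjusted p 0.0600). Irf8 passed under 4 alternatives, with an adjusted p of 0.0180 after normexp, 0.0289 with a trended prior, 0.0437 with a replicate block and 0.0455 with median centring. Cbfb, the subunit that binds Runx1, was at 0.41 ± 0.19 (limma adjusted p 0.299).

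Genes listed as upstream regulators of blood and vessel precursors changed in both directions. Of the 19 genes in this list, 2 rose and 3 fell, beside 0.984% and 1.85% of all genes. At an unadjusted p of 0.05, 7 were higher and 5 lower, beside 14.1% and 11.9%. Sox18 and Ets1, vascular transcription factors, rose by 1.53 ± 0.11 (limma adjusted p 0.0349) and 1.15 ± 0.12 (0.0469). Mesp1, Mixl1 and Eomes, which are active in nascent mesoderm, fell, with differences of -6.22 ± 0.38 (0.0342), -5.15 ± 0.42 (0.0367) and -4.91 ± 0.30 (0.0342). On the Venus-positive arrays Mesp1 was well above background on 1 of 2. With normexp the 3 differences were -3.78, -3.58 and -4.37, so their sizes depended on the background correction. Among the genes that missed the threshold, Etv2 was at -1.50 ± 0.26 (limma adjusted p 0.0851) and Erg at 1.46 ± 0.16 (0.0502). The median of the list was 0.19, and -0.08 without Venus-positive replicate 1. Of 17 tested hemogenic and blood progenitor genes 4 rose and 0 fell, beside 0.984% and 1.85% of all genes. At an unadjusted p of 0.05, 9 were higher and 1 was lower, beside 14.1% and 11.9%. Of the 17, 12 had positive and 5 negative values. The median was 0.52 and ranged from 0.26 to 0.84 without 1 array. Kit, the stem cell factor receptor, was at 2.59 and 2.71 against 3.98 and 3.85, a rise of 1.27 ± 0.11 (limma adjusted p 0.0395). Cd34, a surface marker of progenitors and endothelium, was at 5.20 and 5.53 against 7.06 and 6.92, a rise of 1.63 ± 0.16 (0.0434). The others, Tek and Esam, are also endothelial genes and rose by 1.53 ± 0.17 and 1.38 ± 0.10 (0.0479 and 0.0349). Pecam1, on both lists too, was at 1.42 ± 0.19 (0.0613). The gene lower at an unadjusted p of 0.05 was Itgb3, at -0.69 ± 0.24 (limma adjusted p 0.208), and Adgrg1 was at -0.79 ± 0.65 (0.525). Itga2b was at 0.43 ± 0.40 (0.572). Ptprc, which encodes the pan-leukocyte antigen CD45, and Mecom were well above background on 0 of 4 arrays.

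Of 14 endothelial markers 4 rose and 0 fell, beside 0.984% and 1.85% of all genes. At an unadjusted p of 0.05, 12 were higher, and 13 were higher without overlap, beside 14.1% and 32.3% of all genes. Their median was 1.40. The summed level was 276 and 332 on the Venus-negative arrays, against 576 and 680 on the Venus-positive ones. Mmrn2 was the fourth call beside Sox18, Tek and Esam (1.54 ± 0.12; limma adjusted p 0.0353). The junction genes Cldn5 and Cdh5 were at 1.86 ± 0.32 (0.0840) and 1.56 ± 0.42 (0.148). Of 14 tested erythroid genes 0 passed the adjusted threshold and 0 the unadjusted, with a median of -0.42 that ranged from -0.79 to -0.06 without 1 array, and Rhag and Slc4a1 were well above background on 1 array each. The largest differences were those of Trim10 (-0.995 ± 0.52; limma adjusted p 0.341), Nfe2 (-0.87 ± 0.57; 0.427), Klf1 (-0.85 ± 0.68; 0.512) and the embryonic globin Hbb-bh1 (-0.72 ± 0.46; 0.419). Of 13 tested mature blood cell genes 0 passed either threshold, with a median of 0.05. The level summed over all 22 on the array, dim ones included, was 77.1 and 98.3 against 92.5 and 88.0. Lyz2, Cd79a, Adgre1, Il7r and Rag2 were well above background on 0 arrays. The OP9 stromal and fibroblast markers had 0 calls among 14, with 2 lower at an unadjusted p of 0.05, beside 11.9% of all genes. They had 12 negative values and a median of -0.34 (-0.59 to -0.06 without 1 array). The level summed over all 15 on the array, dim ones included, was 137 and 109 against 111 and 74.8. Thy1 was at -1.60 ± 0.39 (limma adjusted p 0.128, and 0.0434 with a replicate block), Pdgfrb at -0.90 ± 0.15 (0.0819, and 0.0368 with normexp) and Cxcl12 at -1.02 ± 0.60 (0.384). Postn was well above background on 0 of 2 Venus-negative arrays. Its measured difference was 1.61 ± 0.65 (limma adjusted p 0.251) and 0.12 with normexp, so its size depended on the background correction. Pluripotency markers had 1 call among 10 (Tdgf1, which fell by 4.89 ± 0.14; limma adjusted p 0.0246), beside 1.85% of all genes lower. The difference of Tdgf1 was -3.47 with normexp, so its size depended on the background correction. The median of the list was -0.28, which ranged from -0.72 to -0.03 without 1 array. Dppa5a, Pou5f1 and Klf2 were at -2.47 ± 0.40 (0.0774), -2.38 ± 0.34 (0.0663) and 0.95 ± 0.23 (0.126). Cardiac markers had 1 call among 10, beside 1.85% of all genes lower, and a median of -1.51, or -0.72 with normexp. Of the 10, 5 were lower at an unadjusted p of 0.05 and 8 were lower without overlap, beside 11.9% and 29.4% of all genes. Myl7, the call, fell and was well above background on 0 of 2 Venus-positive arrays. Its measured difference was -6.02 ± 0.55 with the processed signal (limma adjusted p 0.0398) and -2.45 after normexp, so its size depended on the background correction. Myh6, Tbx5 and Actc1 were at -2.62 ± 0.57 (0.113), -2.45 ± 0.93 (0.235) and -1.60 ± 0.71 (0.282). Tbx5 was well above background on 1 of 2 Venus-positive arrays, and its difference was -0.61 with normexp. The part of these cell types in the values of the 10 factors was not tested.

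**Figure D4:**
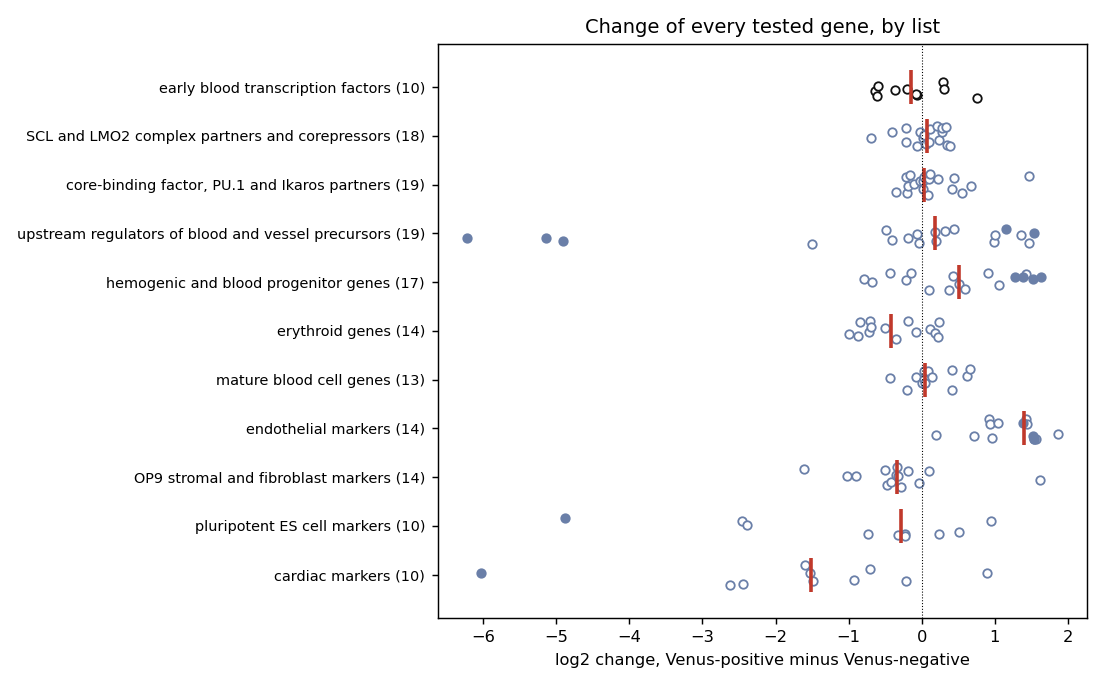
Log2 change, Venus-positive minus Venus-negative, of every tested gene (points) in the early blood factors and in the lists of partners, regulators and cell type markers, with the number tested in brackets. Filled points passed an adjusted p of 0.05 and red bars are medians. The early blood factors have a median of -0.14 and no filled point, the hemogenic and progenitor genes a median of 0.52 and 4 filled points, and the endothelial markers a median of 1.40 and 4.

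The genes whose pattern over the 4 arrays was most like that of a factor were found for the 3 factors with the largest difference, as the root mean square distance between log2 values centred on each gene's mean. For Lyl1 these were Herc6, Trim63 and Nudt13, at distances of 0.0494, 0.0504 and 0.0516, against a median of 0.451 over all genes. For Runx1 they were Zfp971, Peg3os and Cdh11, at 0.0110, 0.0346 and 0.0413 against 0.397. For Gfi1 they were Rps6ka4, Peg10 and Syt13, at 0.0365, 0.0369 and 0.0524 against 0.459. With normexp the difference between the fractions was 0.77 for Lyl1, but 0.02 for Herc6, 0.16 for Trim63 and 0.64 for Nudt13. For Runx1 it was -0.59, against -0.20 for Zfp971, -0.35 for Peg3os and -0.57 for Cdh11. The distances were not computed with normexp. With 4 arrays and 13926 genes, such distances describe only these arrays.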

How the data were processed

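Single-colour arrays were read for 2 Venus-negative and 2 Venus-positive samples. The intensity values of each spot were made by the authors with Agilent Feature Extraction 10.10.1.1, background-subtracted and spatially detrended without scaling between arrays, per the file headers. A table deposited by the authors for the whole series holds the same intensity multiplied by a constant for each array (2.15, 2.44, 1.98 and 2.11; column medians 41.0, 42.3, 41.0 and 38.1), with no centring of genes, and gave the same results; the rule behind the constants is not given in the sources used here. Well-above-background, saturation and outlier flags per spot are other values, deposited by the authors in the same tables.

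Control spots and 152 to 196 outlier spots per array were left out, log2 signals were centred on each array's 75th percentile, and spots of a probe were averaged. Of 55681 probes, 27235 matched 1 symbol through RefSeq accessions (GRCm38.p6) and 28446 had none; 27899 were well above background on both arrays of a fraction and were kept. A gene was represented by its brightest such probe, which gave 13926 genes and 9622 unnamed probes. Fractions were compared in R 4.3.3 with limma 3.58.1 (lmFit and eBayes, 2 residual and 1.80 prior degrees of freedom; data.table, version 1.17.8) and Benjamini-Hochberg adjustment over all features; the fit was tested on simulated data. An exact permutation test of 2 against 2 arrays cannot go below p = 0.333 and was not used. The scanner tables used here hold no mean signal, so normexp (offset 50) was run on the median signal and the median background.

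The named genes were the 10 factors with all probes, Hoxb6 and Kdr, the tested genes of each list with the largest change (up to 4) or past the threshold, some of the defining markers below background, and 3 genes of most similar pattern for each of the 3 factors with the largest change. Cbfb, Ldb1 and Itga2b were named for their role, after the values were seen. Itgb3, Adgrg1, Etv2 and Erg were added for their values. The factors and lists were chosen with earlier results of these data known. Alternatives were median centring, normexp, no filter on dim probes, a trended prior, the replicate number as a block, the value table, the mean of a gene's probes, and leaving out each array.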

Additional observations from a re-analysis of the deposited data

How the results depend on the processing

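By the probe that represents each gene, 0 of the 10 factors passed the adjusted threshold under any of the 11 alternatives, while the second Runx1 probe passed with normexp (0.0469). By the representing probes the adjusted p in limma was lowest for Gfi1 with a replicate block (0.0684), over a range of 0.0684 to 0.690 for its alternatives. Tal1, Lmo2, Lyl1, Runx1, Gfi1, Hhex and Ikzf1 kept their direction under all 11. Spi1 did not: it was 0.0064 with median centring and -0.33 to 0.21 over the fits without 1 array. Gfi1b ranged from -0.48 to 0.31 and Myb from -0.75 to 0.034 over those fits. Of the mature blood cell genes, Coro1a ranged from -1.09 to 0.21, Laptm5 from -0.10 to 0.93, Mpo from -0.15 to 1.39 and Pf4 from -0.35 to 1.66; the cause was not tested. Besides Irf8, Hoxb6, Kdr, Ikzf4, Mbd2, Thy1 and Pdgfrb, the list genes Pecam1, Cldn5, Cdh5, Dppa5a, Pou5f1, Klf2, Myh6 and Tbx5 missed the threshold and passed under at least 1 alternative. Only the list genes of largest change or past the threshold were followed through the alternatives. Other list genes, such as Erg, were not checked.

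Over all genes, 137 higher and 257 lower calls became 493 and 539 with normexp, 597 and 650 with a trended prior, and 290 and 421 with a replicate block; higher calls became 259 with median centring, which gave 296 lower. They became 0 and 0 without the filter on dim probes, where 20658 genes were tested and 1736 and 1783 passed unadjusted. Without any 1 array they were 0 to 0 in each direction, with 1 array fewer in a fit of 4, while 1105 to 1514 higher and 1111 to 1331 lower genes passed unadjusted. Labels do not say that replicate numbers pair the samples; the same-numbered arrays deviated together (r = 0.414 across features, which are not independent). Signals near background limit Ikzf1's second probe, and the difference of Gfi1 was smaller with normexp (-0.36 against -0.62). Having 2 arrays per fraction limits every value.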
